A study of Homo sapiens with 17 samples.

Results

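Of 41040 named genes measured in IMR-90 cells, 31 were close to silent before DNA damage and readily detected 4 weeks after it. They were chosen by their own values: a mean level under 0.5 CPM (the gene's counts per 1000000 counts of all named genes in the library) over the untreated libraries, and a mean of at least 3 CPM over the week 4 libraries. Collagen, potassium channel, cadherin and protocadherin symbols, long intergenic noncoding symbols and EGLN3 were left out. In all, 27554 named genes were under 0.5 CPM at week 0 and 10829 reached 3 CPM at week 4, and the reverse pattern, at least 3 CPM at week 0 and under 0.5 at week 4, was met by 4 genes. The 31 genes comprise 27 protein-coding genes, 3 long noncoding RNAs (PURPL, COPG2IT1 and PKD1L1-AS1) and the transcribed pseudogene RPLP0P2.

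IMR-90 is an established diploid fibroblast line from human fetal lung, and the study profiled it by bulk RNA-seq as a model of senescent-cell markers. The week 0 group was untreated (n = 5 libraries). The week 1 and week 4 groups (n = 6 libraries each) were given 20 µM etoposide, a topoisomerase II poison, for 48 h and were then kept in drug-free medium until harvest. All cells grew in minimal essential medium with fetal bovine serum, and all come from a single line, so other fibroblasts are not covered. Untreated cells were collected at week 0 only, so treatment and time in culture cannot be told apart. The labels do not say that replicates were separate cultures, and p-values measure the spread between libraries, which may be technical.

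Etoposide traps topoisomerase II on cut DNA, and the resulting double-strand breaks activate the transcription factor p53, which binds paired copies of a short motif near its target genes. Cells that stop dividing for good after such damage are called senescent, and they are known for secreting cytokines, growth factors and matrix proteins. Genes of other tissues are usually silent in fibroblasts because their activators are missing or because DNA methylation, Polycomb complexes or the neuronal repressor REST keep them off.

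The libraries held 77.2 to 102.8 M counts on named genes, and 16891 genes were tested. Summed fibroblast markers were highest of the 7 marker lists in all 17 libraries, at 43980 to 53339 CPM at week 0, 75103 to 81374 CPM at week 1 and 97630 to 101599 CPM at week 4. Of these 12 markers, 8 were called higher and 2 lower at week 4 than at week 0 (beside 33.9% and 33.7% of all tested genes). FN1 went from a mean of 12672 CPM at week 0 to 42877 at week 4, whereas PDGFRA went from 391 to 277. Week 0 replicates 1 and 4 stood apart from the other untreated libraries: the chi-square per gene was 92.4 to 216 between these libraries and replicates 3, 5 and 6, against 12.2 to 23.4 among the latter. Without replicates 1 and 4, 29 of the 31 genes met the rule, and PTCHD4 and LRATD2 had a week 0 mean above the limit.

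All 31 genes were already above the untreated libraries at week 1, the time point that the rule did not use. Their summed level was 5.23 to 8.42 CPM over the week 0 libraries, 99.9 to 112 CPM over the week 1 libraries and 215 to 233 CPM over the week 4 libraries. No gene had a week 1 mean under 0.5 CPM, 21 lay between 0.5 and 3 CPM, and 10 had already reached 3 CPM. In edgeR's quasi-likelihood test all 31 rose from week 0 to week 1, and all by more than 2-fold, against 32.9% of tested genes called higher and 11.6% called higher by more than 2-fold. For all 31, every week 1 library was above every week 0 library, which held for 18.7% of tested genes. Their median log2 fold change was 3.70, beside -0.02 over all tested genes. These comparisons share the week 0 libraries with the rule, and the genes were chosen to be low there. Among the 3405 tested genes under 0.5 CPM at week 0, 33.7% were called higher at week 1. A bulk measurement cannot tell a gene on in fewer cells from less of its RNA per cell.

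**Figure D1:**
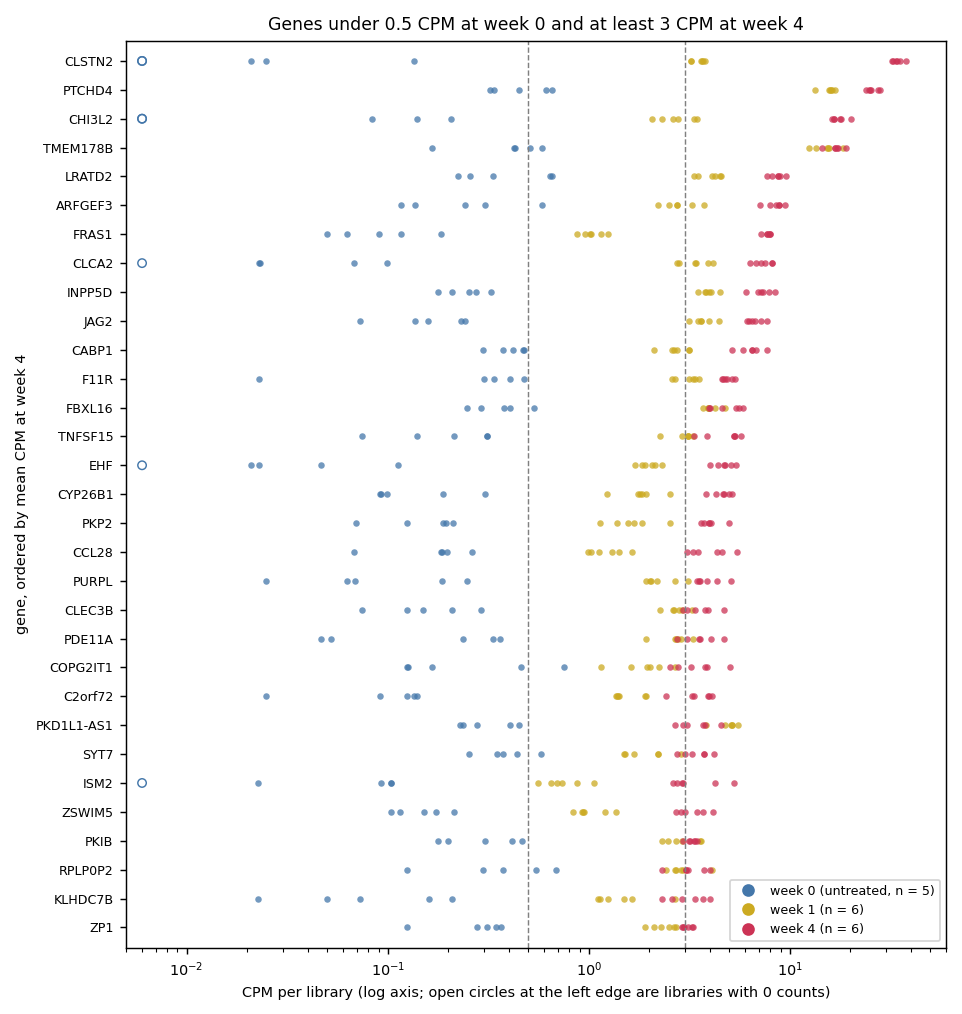
CPM in each library (horizontal, log axis, 1 point per library) for the 31 genes (rows, ordered by mean at week 4), coloured by week, with open circles at the left edge for libraries with 0 counts and dashed lines at 0.5 and 3 CPM. The week 1 points of all 31 genes lie to the right of their week 0 points, and for 21 genes the week 4 points lie to the right of all week 1 points.

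The contrast of week 4 with week 0 is the one that chose the genes and is given as a description only. All 31 were called higher in edgeR's test (background 33.9% of tested genes, or 12.1% by more than 2-fold), with a median log2 fold change of 4.87. Ratios of the mean CPM ran from 7.91 to 947, with a median of 25.7. The highest, that of CLSTN2, depends on week 0 replicate 6: its fitted log2 fold change was 10.01 with that library and 11.56 without it. Just inside the week 0 limit were PTCHD4 at 0.475 CPM, TMEM178B at 0.423 and LRATD2 at 0.422, and just outside it were SLC16A12 at 0.596, NFASC at 0.598 and EXTL1 at 0.615. Just inside the week 4 limit were ZP1 at 3.08 CPM, KLHDC7B at 3.15 and RPLP0P2 at 3.21, and just outside it were CX3CL1 at 2.98, TREM1 at 2.91 and GPR146 at 2.91.

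Between weeks 1 and 4 most of the genes went on rising. In edgeR's test 25 of the 31 were higher at week 4 than at week 1 (background 21.8%) and 1, PKD1L1-AS1, was lower (background 18.6%). FBXL16, PDE11A, TMEM178B, PKIB and RPLP0P2 did not pass the test, though their estimates were above 0. The test does not mark a gap in size. PDE11A had a log2 fold change of 0.45, and CLEC3B and ZP1, which passed, had 0.43 and 0.42. By more than 2-fold and past the test, 15 were higher, against 2.99% of tested genes, and 21 had all week 4 libraries above all week 1 libraries, against 13.5%. The median log2 fold change was 0.92, beside 0.01 over all tested genes. This comparison shares the week 4 libraries with the rule, which chose genes that were high there. Of the 3405 tested genes under 0.5 CPM at week 0, 10.2% were called higher at week 4 than at week 1. The week 1 mean was 10.3% to 142% of the week 4 mean, with a median of 54.0%, and it was under 50% for 15 genes.

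**Figure D2:**
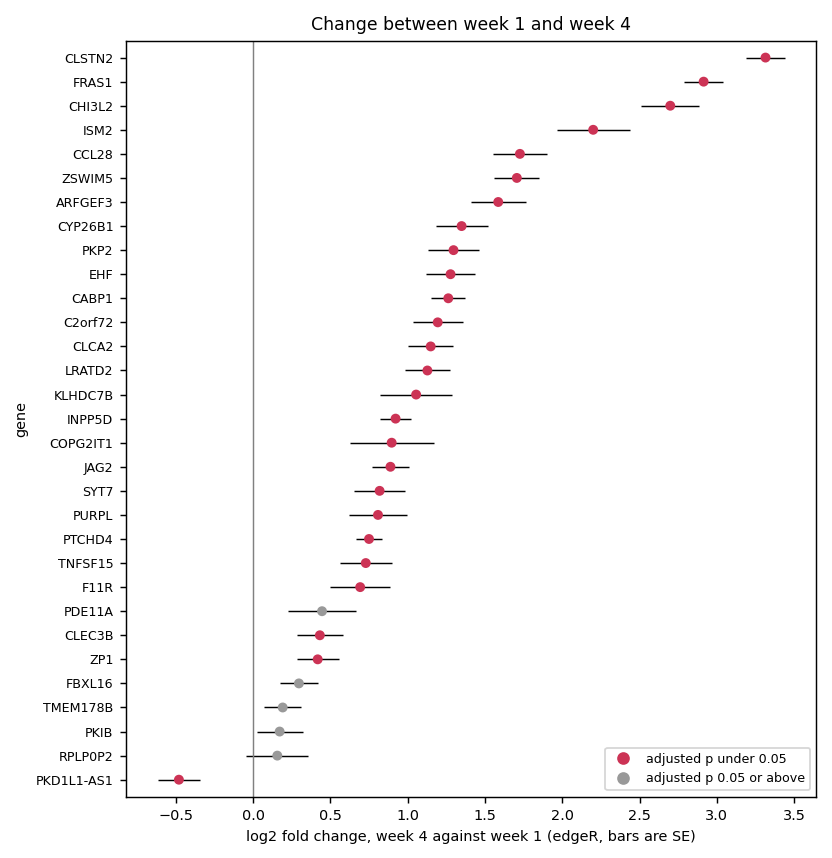
Log2 fold change from week 1 to week 4 (horizontal) of each of the 31 genes (rows, in order of size), with bars of 1 SE and colour for an adjusted p under 0.05. CLSTN2, FRAS1 and CHI3L2 stand at the top, RPLP0P2, PKIB, TMEM178B, FBXL16 and PDE11A are grey, and PKD1L1-AS1 alone lies below 0.

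Among genes of nerve cells and synapses, CLSTN2 had the highest ratio of week 4 to week 0 of the 31 genes. It encodes calsyntenin 2, a cadherin-family protein of the postsynaptic membrane. At week 0 its libraries read 0, 0, 0.0249, 0.0208 and 0.135 CPM (replicates 1, 3, 4, 5 and 6), at week 1 it had 3.21 CPM in the lowest, 3.62 in the median and 3.78 in the highest library, and at week 4 it had 32, 34 and 37.7 CPM. The groups did not overlap at any step. The log2 fold change was 6.70 from week 0 to week 1 and 3.32 ± 0.13 (SE) from week 1 to week 4 (edgeR adjusted p 2.0e-14). Its week 0 level rests on few counts, 16 over the 5 libraries, of which 12 came from replicate 6. Without replicate 6 the log2 fold change to week 1 was 8.24.

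SYT7, a synaptotagmin that senses calcium in vesicle and lysosome fusion, read 0.398 ± 0.121 CPM (SD, n = 5) at week 0, 2.0 ± 0.542 (n = 6) at week 1 and 3.45 ± 0.529 (n = 6) at week 4. CABP1, a neuronal relative of calmodulin that tunes calcium channels, read 0.407 ± 0.0732, 2.73 ± 0.386 and 6.41 ± 0.872 CPM. Both were higher at week 4 than at week 1. The list of neuronal adhesion and synapse genes held 136 tested genes, 4 of them among the 31 (CLSTN2, SYT7, PTCHD4 and TMEM178B). Of these 136, 77 rose and 22 fell from week 0 to week 1 (beside 32.9% and 34% of all tested genes), with a median log2 fold change of 0.64. From week 1 to week 4, 51 were higher and 18 lower (beside 21.8% and 18.6%), with a median of 0.24. The sum of 12 neural and glial markers was 18.5 to 22.7 CPM at week 0, 14.7 to 16.9 at week 1 and 14.7 to 16.9 at week 4, and of 8 tested markers 0 were called higher and 2 lower at week 1, and 2 higher and 2 lower at week 4, both against week 0.

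**Figure D3:**
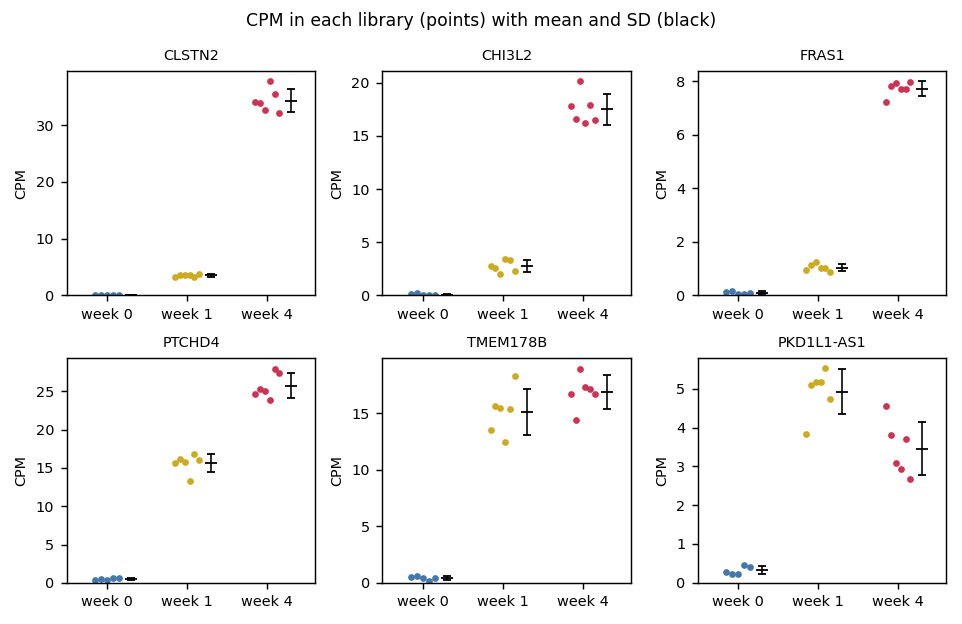
CPM of 6 genes (panels, linear axes that start at 0) at weeks 0, 1 and 4, with 1 point per library and the mean with its SD. CLSTN2, CHI3L2 and FRAS1 gained most of their level after week 1, PTCHD4 gained most of it by week 1, TMEM178B had overlapping libraries at weeks 1 and 4, and PKD1L1-AS1 was lower at week 4 than at week 1.

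At week 1, PTCHD4, TMEM178B and INPP5D, which are in the list of p53 target genes, had 60.7%, 89.5% and 54.0% of their week 4 level, beside a median of 54.0% over all 31 genes. CLCA2 and PURPL, which are outside the list, had 46.1% and 58.3%. PTCHD4, a Patched-related membrane protein and known p53 target that dampens Hedgehog signalling, had 0.336, 0.448, 0.324, 0.615 and 0.654 CPM in week 0 replicates 1, 3, 4, 5 and 6. It had 13.3, 15.9 and 16.8 CPM in the lowest, median and highest week 1 libraries and 23.8, 25.2 and 28 CPM in those of week 4. The groups did not overlap, and the log2 fold change was 5.18 by week 1 and 0.75 ± 0.09 (SE) after it (edgeR adjusted p 4.2e-07). PURPL, a long noncoding RNA that p53 induces and that lowers p53 levels, read 0.118 ± 0.0944 CPM at week 0, 2.32 ± 0.47 at week 1 and 3.98 ± 0.639 at week 4. CLCA2, a self-cleaving membrane protein of chloride-channel regulators and a known p53 target, read 0.0427 ± 0.0402, 3.4 ± 0.562 and 7.37 ± 0.736 CPM. INPP5D, the lipid phosphatase SHIP1 known from blood cells, read 0.248 ± 0.0581, 3.94 ± 0.340 and 7.30 ± 0.820 CPM. PURPL, CLCA2 and INPP5D all rose in both steps.

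TMEM178B, a multi-pass membrane protein, reached its level by week 1 and did not move past the test later. Its week 0 libraries read 0.510, 0.586, 0.423, 0.167 and 0.429 CPM, while the lowest, median and highest week 1 libraries read 12.4, 15.4 and 18.3 CPM and those of week 4 read 14.4, 16.9 and 19.0 CPM. The week 1 and week 4 libraries overlapped, with a log2 fold change of 0.19 ± 0.12 (SE) between them (edgeR adjusted p 0.21). The list of p53 target genes holds 76 tested genes, among them PTCHD4, TMEM178B and INPP5D. Of the 76, 60 rose and 5 fell from week 0 to week 1 (beside 32.9% and 34% of all tested genes; median log2 fold change 1.04). From week 1 to week 4, 15 were higher and 31 lower (beside 21.8% and 18.6%; median -0.12).

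The base sequence before the start of PTCHD4 and PURPL is shown because both hold a full p53 site, that is 2 copies of the 10-base p53 half-site with at most 13 bases between them. Windows of RefSeq, build GRCh38.p14, run 250 bases before the start, and capitals mark the p53 site. PTCHD4 lies at chr6:48111198-48111447 on the minus strand, with the site 20 to 1 bases before the start. PURPL lies at chr5:27472042-27472291 on the plus strand, with the site 127 to 108 bases before the start. Both windows were chosen after their values were seen.
PTCHD4: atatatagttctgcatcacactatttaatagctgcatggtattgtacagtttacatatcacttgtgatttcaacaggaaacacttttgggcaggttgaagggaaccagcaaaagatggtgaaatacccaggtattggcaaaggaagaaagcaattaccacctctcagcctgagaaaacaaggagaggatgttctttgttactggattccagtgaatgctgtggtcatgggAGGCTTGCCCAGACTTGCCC
PURPL: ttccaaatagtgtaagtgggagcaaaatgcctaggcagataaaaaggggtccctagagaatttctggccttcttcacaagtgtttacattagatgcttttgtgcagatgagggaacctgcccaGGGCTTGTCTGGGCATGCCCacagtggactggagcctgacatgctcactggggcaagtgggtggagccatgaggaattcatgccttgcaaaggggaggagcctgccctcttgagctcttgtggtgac
In both, the half-sites are directly adjacent. Over windows that also take in 50 bases after the start, 24 of the 31 genes were matched by symbol. A full site was found in 2 of these 24 (8.33%) and in 5 of 12457 tested genes with a window (0.0401%), which were PTCHD4, PURPL, DYNC2H1, LNCTAM34A and MCC. All 5 were called higher at week 1 than at week 0, beside 32.9% of all tested genes. DYNC2H1, MCC and LNCTAM34A rose by 0.40, 0.40 and 1.66 on the log2 scale. PTCHD4 and PURPL are among the 31 genes, which were chosen to be low at week 0. At least 1 half-site was found in 3 of the 24 (12.5%), PTCHD4 and PURPL among them, and in 5.49% of the tested genes. The match describes letters, not binding, which was not measured.

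Secreted and matrix genes included the late rises next in size to that of CLSTN2, in FRAS1 and CHI3L2. CHI3L2 encodes a secreted chitinase-like protein known from cartilage. It had 0.139, 0.207, 0, 0.0834 and 0 CPM in week 0 replicates 1, 3, 4, 5 and 6, then 2.06, 2.69 and 3.44 CPM in the lowest, median and highest week 1 libraries and 16.2, 17.2 and 20.1 CPM in those of week 4. No libraries overlapped between groups, and the log2 fold change was 5.13 by week 1 and 2.70 ± 0.19 (SE) after it (edgeR adjusted p 2.1e-10). The first of these rests on 38 counts over the week 0 libraries and was 5.73 without week 0 replicate 3. Per kilobase of gene length CHI3L2 had the highest week 4 level of the 31 genes, 5.31 CPM per kb.

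FRAS1, a matrix protein that anchors epithelium to its basement membrane, gained most of its CPM after week 1, though on the log2 scale the step by week 1 was the larger. It read 0.116, 0.184, 0.0498, 0.0625 and 0.0902 CPM in week 0 replicates 1, 3, 4, 5 and 6, then 0.868, 1.02 and 1.25 CPM in the lowest, median and highest week 1 libraries and 7.21, 7.77 and 7.95 CPM in those of week 4. The groups did not overlap. Its log2 fold change was 3.52 by week 1 and 2.91 ± 0.12 (SE) after it (edgeR adjusted p 1.1e-13). The list of matrix and chitinase-like proteins, which holds CHI3L2 and FRAS1, had 57 of 109 tested genes higher and 27 lower at week 1 (beside 32.9% and 34% of all tested genes), and 49 higher and 18 lower from week 1 to week 4 (beside 21.8% and 18.6%).

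The ligands JAG2, TNFSF15 and CCL28 rose in both steps. JAG2, a membrane-bound ligand of Notch receptors, read 0.168 ± 0.0699 CPM at week 0, 3.71 ± 0.445 at week 1 and 6.73 ± 0.6 at week 4. TNFSF15, a TNF-family cytokine that costimulates T cells, read 0.210 ± 0.105, 2.96 ± 0.367 and 4.79 ± 0.960 CPM. CCL28, a mucosal chemokine for lymphocytes, read 0.179 ± 0.0700, 1.25 ± 0.251 and 4.05 ± 0.920 CPM. All 3 were higher at week 4 than at week 1, CCL28 by 1.73 on the log2 scale. The list of secreted cytokines, chemokines and growth factors had 90 of 186 tested genes higher and 48 lower at week 1 (beside 32.9% and 34% of all tested genes), and 62 higher and 40 lower from week 1 to week 4 (beside 21.8% and 18.6%).

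ISM2, a secreted isthmin-family protein, was the lowest of the 31 at week 1, with a mean of 0.762 CPM, and rose by a further 2.20 on the log2 scale to 3.44 CPM at week 4. CLEC3B, the secreted plasminogen-binding protein tetranectin, read 0.169 ± 0.0828, 2.75 ± 0.326 and 3.63 ± 0.649 CPM, with a log2 fold change of 0.43 after week 1 (edgeR adjusted p 0.025). That call of CLEC3B was lost without week 1 replicate 2, week 4 replicate 2 or week 4 replicate 4, among others (edgeR adjusted p 0.052 to 0.11). CLEC3B shares 54.7% of its exon bases with EXOSC7 on the same strand, so reads there could have been split between the genes. EXOSC7 had 20.4, 18.4 and 15.2 CPM at weeks 0, 1 and 4 and fell where CLEC3B rose between weeks 1 and 4. Leukocyte markers were near 0 throughout, with a sum of 0.469 to 1.09 CPM at week 0, 0.648 to 1.07 at week 1 and 0.336 to 1.08 at week 4 over 12 markers.

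F11R, PKP2 and EHF are known from epithelium and rose in both steps. Of the list of epithelial and cornified-layer genes, which holds PKP2 but not F11R or EHF, 36 of 90 tested genes were higher and 18 lower at week 1 (beside 32.9% and 34% of all tested genes), and 10 were higher and 22 lower from week 1 to week 4 (beside 21.8% and 18.6%; median log2 fold change -0.09). F11R, the tight-junction protein JAM-A, read 0.308 ± 0.173 CPM at week 0, 3.09 ± 0.385 at week 1 and 4.90 ± 0.291 at week 4. PKP2, a plaque protein of desmosomes, read 0.158 ± 0.0594, 1.69 ± 0.484 and 4.06 ± 0.473 CPM. F11R shares 36.6% of its exon bases with AL591806.3, PKIB 13.2% and JAG2 7.33% with others. None of these partners has counts here under that symbol, so whether reads there were split cannot be told. EHF, an ETS-family transcription factor of epithelia, read 0.0406 ± 0.0436, 1.99 ± 0.221 and 4.72 ± 0.488 CPM, and its libraries did not overlap between groups. EHF rose by 5.71 and then 1.28 on the log2 scale. The first value rests on 18 counts over the week 0 libraries, of which 10 came from replicate 6, and was 6.51 without that library. The 12 epithelial markers summed to 75.6 to 83.8 CPM at week 0, 246 to 286 at week 1 and 210 to 229 at week 4, and 5 of 8 tested were higher and 2 lower at week 1. KRT18, KRT8 and KRT19 made up most of that sum, and KRT19 went from 1.87 to 23.9 and 11.2 CPM. MUC1 had 4.71, 6.52 and 11 CPM at weeks 0, 1 and 4, CLDN4 had 5.22, 3.28 and 4.49 CPM, and KRT7 had 1.67, 0.972 and 0.787 CPM. EPCAM, the epithelial adhesion molecule, had 0.344, 0.311 and 0.176 CPM at weeks 0, 1 and 4, CDH1 had 0.00451, 0.176 and 0.0345 CPM, and ESRP1 had 0, 0.0790 and 0.0124 CPM. KRT5, SFTPC and SCGB1A1 were under 0.05 CPM at every week. The part of these marker changes in the levels of F11R, PKP2 and EHF was not tested.

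Some enzymes and regulators of signalling passed the test from week 1 to week 4 and others did not. CYP26B1, which breaks down retinoic acid, read 0.155 ± 0.0927 CPM at week 0, 1.84 ± 0.414 at week 1 and 4.59 ± 0.478 at week 4. ARFGEF3, a large relative of the exchange factors for ARF GTPases, read 0.276 ± 0.188, 2.87 ± 0.550 and 8.46 ± 0.818 CPM. PDE11A, which hydrolyses cyclic nucleotides, and PKIB, an inhibitor of protein kinase A, had 2.71 and 2.93 CPM at week 1 and 3.62 and 3.23 CPM at week 4, with log2 differences of 0.45 and 0.17 that did not pass the test (edgeR adjusted p 0.12 and 0.39). CYP26B1 and ARFGEF3 went on rising after week 1, ARFGEF3 by 1.59 on the log2 scale.

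FBXL16, an F-box protein, had a log2 difference of 0.30 between weeks 1 and 4 that did not pass the test (edgeR adjusted p 0.057). LRATD2, a protein with an LRAT domain, read 0.422 ± 0.211, 4.03 ± 0.503 and 8.62 ± 0.658 CPM. ZSWIM5, a zinc-finger protein, KLHDC7B, a kelch-domain protein, and C2orf72 had 1.04, 1.55 and 1.56 CPM at week 1 and 3.32, 3.15 and 3.50 CPM at week 4. ZP1, a glycoprotein of the egg coat, read 0.285 CPM at week 0, 2.36 at week 1 and 3.08 at week 4. LRATD2, ZSWIM5, KLHDC7B, C2orf72 and ZP1 were all higher at week 4 than at week 1.

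PKD1L1-AS1, a noncoding RNA antisense to PKD1L1, was the only gene of the 31 that fell after week 1. It had 0.278, 0.230, 0.237, 0.448 and 0.406 CPM in week 0 replicates 1, 3, 4, 5 and 6, then 3.85, 5.13 and 5.53 CPM in the lowest, median and highest week 1 libraries and 2.68, 3.39 and 4.54 CPM in those of week 4. The week 1 and week 4 libraries overlapped. The log2 fold change from week 1 to week 4 was -0.48 ± 0.14 (SE, edgeR adjusted p 7.9e-03). PKD1L1 itself read 0.245 ± 0.0998, 2.51 ± 0.460 and 2.33 ± 0.429 CPM and rose by 3.51 on the log2 scale at week 1. No source used here gives the strand setting of the counts, and these partners cannot be told apart.

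COPG2IT1, a noncoding transcript of the COPG2 locus, read 0.327, 1.94 and 3.54 CPM at weeks 0, 1 and 4, while COPG2 read 36.0, 30.9 and 26.9 CPM. RPLP0P2 is a near-identical copy of the ribosomal protein gene RPLP0, which read 1614, 1328 and 1393 CPM, so reads could have been assigned to either and the values of RPLP0P2 (0.406, 2.95 and 3.21 CPM) are uncertain. RPLP0 did not pass the test in any of the 3 comparisons.

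Per kilobase, the order of week 4 levels differed from that in CPM. After CHI3L2 came PKD1L1-AS1 at 4.28 CPM per kb, CLEC3B at 3.68, CLSTN2 at 2.35, CLCA2 at 1.67, TMEM178B at 1.56 and LRATD2 at 1.5, and PURPL was lowest at 0.168. The genes' lengths had a median of 5784 bases (808 to 28174), against 4896 for tested genes, and 18 of 31 were longer than that. The coefficient of variation over the week 4 libraries had a median of 11.7% (3.54% to 30.7%). For the 20 genes under 5 CPM at week 4 it was 17.3%, beside 11.2% for 805 other tested genes in the same range.

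The promoters of these genes were poorer in CpG than those of tested genes. The observed over expected CpG ratio had a median of 0.518 over the 24 matched genes and 0.823 over 12457 tested genes, and 11 of 24 (45.8%) against 78.2% reached 0.6. Over all 27305 windows in the table, tested or not, the median was 0.580 and 49.0% reached 0.6. The median GC content was 59.8%, 65.0% and 58.3% in these sets. CLSTN2 and TMEM178B are shown because they are among the CpG-rich ones, at ratios of 0.855 and 0.746, whereas PTCHD4 and PURPL are at 0.0667 and 0. Capitals mark GC boxes (GGGCGG on either strand). CLSTN2 lies at chr3:139934935-139935184 and TMEM178B at chr7:141073814-141074063, both on the plus strand of GRCh38.p14, 250 bases before the start.
CLSTN2: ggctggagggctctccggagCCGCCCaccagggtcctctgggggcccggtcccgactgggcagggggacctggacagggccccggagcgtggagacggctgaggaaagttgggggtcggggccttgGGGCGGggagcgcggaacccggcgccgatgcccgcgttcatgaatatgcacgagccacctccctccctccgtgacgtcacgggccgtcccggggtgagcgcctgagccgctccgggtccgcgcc
TMEM178B: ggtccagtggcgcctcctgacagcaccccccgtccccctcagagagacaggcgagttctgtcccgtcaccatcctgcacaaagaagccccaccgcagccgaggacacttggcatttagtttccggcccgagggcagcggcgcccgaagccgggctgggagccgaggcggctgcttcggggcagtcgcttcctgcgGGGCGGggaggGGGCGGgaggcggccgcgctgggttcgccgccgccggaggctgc
A GC box was found in 13 of 24 windows (54.2%) against 67.2% of tested genes. A CCAAT box (CCAAT) was found in 20.8% against 35.9%, TATAAA in 8.33% against 6.29%, an AP-1 site (TGANTCA) in 12.5% against 5.12% and an E-box (CANNTG) in 75% against 60.9%. The binding motif of REST, RE1, was found in 0 of 24 and in 0.0642% of tested genes. All motifs were sought on both strands, and GC-rich windows hold more GC boxes by composition.

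**Figure D4:**
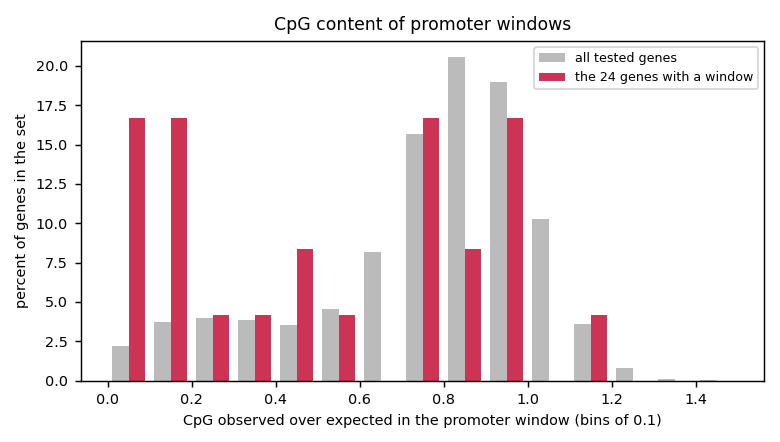
Percent of genes (vertical) by observed over expected CpG ratio of the promoter window (horizontal, bins of 0.1), for all tested genes in grey and the 24 genes with a window in red. Most tested genes lie around their median of 0.823, and the 24 genes fall partly there and partly below 0.2.

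Genes of DNA methylation and Polycomb silencing, a list that also holds enzymes that remove these marks, fell more often than they rose by week 1 and then rose more often than they fell. Of 44 tested, 6 rose and 31 fell from week 0 to week 1 (beside 32.9% and 34% of all tested genes; median log2 fold change -0.46), and 21 were higher and 2 lower from week 1 to week 4 (beside 21.8% and 18.6%). Against week 0, 9 were higher and 27 lower at week 4 (beside 33.9% and 33.7%), among the higher ones KDM6B and TET3, which remove marks and were picked after their values were seen, at 0.93 and 0.83 on the log2 scale. EZH2, a methyltransferase of Polycomb repressive complex 2, fell by 2.86 on the log2 scale at week 1. EZH1, also a methyltransferase of that complex, rose by 1.11 at week 1 and was 0.90 above week 0 at week 4. UHRF1, which guides maintenance methylation, fell by 2.82 at week 1, and DNMT1, the maintenance methyltransferase, fell by 1.57. Of 18 tested genes of the REST complex, 2 rose and 12 fell at week 1 (beside 32.9% and 34% of all tested genes), and 9 were higher and 2 lower from week 1 to week 4 (beside 21.8% and 18.6%). Against week 0, 4 were higher and 9 lower at week 4. REST itself had a log2 difference of -0.11 at week 1 that did not pass the test (edgeR adjusted p 0.20) and rose by 0.27 from week 1 to week 4 (edgeR adjusted p 3.7e-03). Whether these changes bear on the 31 genes was not tested.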

How the data were processed

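The authors deposited a file of raw counts per gene symbol for each of 17 libraries, not normalized. Of these files, 4 also hold a further column, which was read here as gene length. RNA was cleaned on columns with DNase before Illumina library preparation, per the labels' protocols. The submitters' processing notes name HISAT2 2.0.5.2, featureCounts 1.4.6 and the mouse build mm10, although the symbols are human. The build behind the counts is therefore unclear and no coordinates of counted genes are given. For the strand setting and for reads that map more than once, nothing is given in the sources used here. The unnamed entry, 0.221% to 0.289% of counts, was left out.

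Groups came from the labels. Levels are CPM on library totals of named genes, with mean ± SD over libraries. Counts were tested with edgeR 4.0.16 (R 4.3.3): filterByExpr by group, TMM factors, 1 mean per group over all 17 libraries, quasi-likelihood tests and Benjamini-Hochberg adjustment over 16891 genes, with a call at an adjusted p under 0.05. With scaling factors left out, the tested genes had a median log2 difference of -0.18, -0.19 and -0.02 for week 1 against 0, week 4 against 0 and week 4 against 1. All 31 genes passed the filter. Their week 4 levels were enough for that, and so were their week 1 levels, which were lowest for ISM2 (0.557 CPM in its lowest library). Replicates differed by more than sampling noise in all pairs within a group (chi-square per gene at least 7.38).

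Alternatives were other scalings and filters, DESeq2 1.42.0, voom in limma 3.58.1, a minimum fold, a replicate block, only the groups compared, the files without gene length, other thresholds and each library left out. Promoter windows and starts are from RefSeq (GRCh38.p14; the start listed first), matched by symbol; F11R, FBXL16, LRATD2, PKD1L1-AS1, PKP2, RPLP0P2 and SYT7 had none. Shared exon bases are from GENCODE v29, where COPG2IT1, LRATD2 and PKD1L1-AS1 were not found by symbol, so theirs are not known. The genes, gene lists and tests were chosen with earlier results of these data known. Genes were named by level per kb, ratio of week 1 to week 4, week 0 count, spread, nearness to a threshold and role; ARFGEF3, F11R, JAG2, PURPL and SYT7 fall outside that rule and were chosen after their values were seen.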

Additional observations from a re-analysis of the deposited data

Results flagged for a closer look

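Among 93 pairs of gene and group, 6 held a library that stood apart by Dixon's ratio, the gap to the nearest library over the range of the group, past its 95% critical value. Chance alone marks about 5% of groups. CLSTN2 in week 0 replicate 6 was high (ratio 0.816), at 0.135 CPM against 0 to 0.0249 in the other untreated libraries. FRAS1 in week 4 replicate 1 was low (ratio 0.667), at 7.21 CPM against 7.70 to 7.95. PKP2 in week 4 replicate 4 was high (ratio 0.679), at 4.96 CPM against 3.62 to 4.05.

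Week 1 replicate 4 accounted for the other 3. KLHDC7B was high there (ratio 0.669), at 2.68 CPM against 1.11 to 1.63. RPLP0P2 was high (ratio 0.688), at 4.10 CPM against 2.41 to 2.94. PTCHD4 was low (ratio 0.657), at 13.3 CPM against 15.6 to 16.8.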

How the results depend on the processing

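The number of genes that met the rule moved with its thresholds: 18 with a week 0 mean under 0.25 CPM, 65 under 1, 57 with a week 4 mean of at least 2, 11 with at least 5, 14 when every library had to pass and 11 on CPM per kb, 3 of them among the 31. It was 34 on TMM-scaled CPM and 30 to 32 with each library left out. With a minimum 2-fold change tested from week 1 to week 4, 7 genes were called higher and 0 lower. In the other alternatives 24 to 27 were higher, 24 to 26 with each library left out. Without week 0 replicates 1 and 4 the counts were 31 at week 1 and 27 from week 1 to week 4. All 31 were called higher than week 0 in every alternative run, and no gene changed direction past the test. The rule chose the genes on their week 0 and week 4 values. Counts for week 4 against week 0, here and below, are therefore a description only. From week 1 to week 4, CLEC3B lost its call in 4 alternatives beside the minimum fold (adjusted p 0.052 to 0.11), FBXL16 gained one in 11 (0.020 to 0.043) and PDE11A in 3 (0.0087 to 0.043). The cause was not tested.

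With the replicate number as a replicate block, the counts were 31 at week 1, 31 at week 4 against week 0 and 25 from week 1 to week 4. Libraries with the same number share only a number: their deviations correlated at -0.08 to 0.14 over 16 pairs.

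Of the counts from 1 to 20, 62.4% to 67.8% were even in each library, and genes at 2 counts were 1.76 to 2.55 times as many as genes at 1, so counts may not be independent fragments and low levels are less precise than their counts state. With all counts divided by 2, an alternative chosen after seeing the data, 31, 31 and 26 genes were called higher in the 3 comparisons.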

Other observations

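A further 5 genes were silent at week 0 and reached 3 CPM at week 1 but not at week 4, named here after their values were seen. MYOZ2, a protein of the muscle Z disc, had 0.0805, 3.25 and 1.27 CPM at weeks 0, 1 and 4, and TNFRSF10C, a decoy receptor for the death ligand TRAIL, had 0.327, 4.83 and 2.34 CPM. KLHL4 had 0.172, 3.43 and 2.37 CPM, ELMOD1 had 0.238, 3.10 and 2.30 CPM, and KRT17, a keratin of basal epithelium, had 0.257, 3.73 and 2.75 CPM. In the reverse direction, 4 genes fell from at least 3 CPM to under 0.5 CPM at week 4. KDR, the VEGF receptor of endothelium, had 4.75, 0.232 and 0.399 CPM, and CDC20P1, a pseudogene of the mitotic regulator CDC20, had 6.72, 0.348 and 0.364 CPM. ITPRIPL1 had 3.27, 0.206 and 0.442 CPM, and LINC00707 had 3.14, 0.127 and 0.155 CPM.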
